A study of Mus musculus with 6 samples.

Results

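The genes described were *Trp53*, which encodes the transcription factor p53, its regulators *Mdm2* and *Mdm4*, and 7 genes that p53 is known to activate (*Cdkn1a*, *Ccng1*, *Phlda3*, *Zmat3*, *Trp53inp1*, *Aen* and *Ei24*). They were chosen by name, and all 10 were found among the 54532 genes of the deposited table, each in 1 row. They were measured by RNA-seq in LSKs, the bone marrow fraction negative for lineage markers and positive for Sca1 and c-Kit, which holds hematopoietic stem cells and early progenitors. The control group (CTRL, 3 libraries) came from *Myh9* fl/fl mice without cre, and the *Myh9*-deficient group (cKO, 3 libraries) from *Myh9* fl/fl;*Mx1-cre* littermates on the C57BL/6 background. Both groups carried the floxed alleles and both received poly I:C at 5 mg/kg, a double-stranded RNA analog that induces interferon. By the study's methods the mice were 5 to 6 weeks old at injection. By the sample descriptions 100000 LSKs were sorted 4 days after the first dose. The *Mx1* promoter answers interferon in many cell types, so *Myh9* was not deleted in LSKs alone, and because only cKO mice carried cre, the presence of cre and the loss of *Myh9* cannot be told apart. The libraries within a group were described as independent LSK cell sets, with the number of mice in each not given, so the p-values below measure the spread between these libraries.

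Each library held 17571544 to 19894562 reads on genes. *Myh9*, the floxed gene, encodes non-muscle myosin heavy chain IIA. Only part of the gene was floxed, so the level of *Myh9* over its whole length does not show how far it was deleted. Its level was 23.0, 22.6 and 22.0 FPKM (a read count scaled by gene length and by library depth) in CTRL and 18.4, 20.0 and 17.7 FPKM in cKO LSKs, 17.1% lower in the mean (adjusted p = 0.00642, limma). All 7 LSK marker genes were detected in every library. *Ly6a*, which encodes Sca1, was at 93.2 to 96.7 FPKM in CTRL and 85.4 to 92.3 FPKM in cKO LSKs, and *Kit* at 23.4 to 24.3 and 21.2 to 21.8 FPKM. The levels were taken from bulk RNA, in which fewer cells of a type and less RNA per cell cannot be told apart.

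As background, p53 is a tetrameric transcription factor that is made continuously and degraded continuously, because MDM2 ubiquitinates it and MDM4 holds its activation domain. DNA damage, ribosomal stress or oncogene activity frees p53 from both, so that its activity is set mainly by protein stability and modification and only in part by the amount of its mRNA. Active p53 binds pairs of short half-sites in DNA and raises genes that stop the cell cycle, repair DNA, promote apoptosis or feed back on p53 itself. In hematopoietic stem cells p53 is known for restraining cycling and for removing damaged cells.

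The promoter windows of the genes were read to show where p53 half-sites lie next to the genes measured. A half-site has 10 bases in the order 3 purines, C, A or T at both middle positions, G and 3 pyrimidines, and a full response element is a pair of half-sites. RefSeq windows of 300 bases (250 before and 50 after an annotated start, GRCm38.p6) were searched on both strands. An exact half-site was found in 8.36% of the 32851 windows, and an adjoining pair with at most 1 mismatch over its 20 bases in 29 windows (0.0883%). Of the 10 genes, 8 had 11 windows in all. *Trp53*, *Mdm2*, *Cdkn1a*, *Ccng1*, *Aen* and *Ei24* had an exact half-site, and *Cdkn1a* and *Ccng1* had a pair. A match describes the letters and is not evidence of binding.

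The pairs are shown first, as the bases in capitals within 30-base stretches read 5′ to 3′ on the strand of the gene. That of *Cdkn1a* lies at chr17:29090928-29090947 on the plus strand, centred 41 bases before the first of its annotated starts (-41). That of *Ccng1* lies at chr11:40755462-40755481 on the minus strand, centred at -185. 
*Cdkn1a* pair: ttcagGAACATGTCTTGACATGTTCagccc
*Ccng1* pair: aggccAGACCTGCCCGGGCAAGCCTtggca

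The single half-sites of the other genes lay at chr7:78895937-78895946 (*Aen*, plus strand), chr10:117710935-117710944 (*Mdm2*, minus strand), chr9:36797335-36797344 (*Ei24*, minus strand) and chr11:69580284-69580293 (*Trp53*, plus strand). They are given so that the half-sites of a gene that rose, *Aen*, and of genes that were not called can be read side by side, with the half-site in capitals.
*Aen*: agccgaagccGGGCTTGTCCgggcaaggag
*Mdm2*: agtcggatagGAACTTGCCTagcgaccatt
*Ei24*: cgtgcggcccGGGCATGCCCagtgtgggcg
*Trp53*: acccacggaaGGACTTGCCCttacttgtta

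The 250 bases before the start, for *Cdkn1a* the first annotated start, are shown for 2 genes. These are *Cdkn1a* (chr17:29090729-29090978, plus strand), the member that fell, and *Phlda3* (chr1:135765835-135766084, plus strand), the member with the largest rise. Capitals mark exact half-sites and the pair. The *Cdkn1a* stretch holds the pair and a further half-site at chr17:29090906-29090915, and the *Phlda3* stretch holds no exact half-site.
*Cdkn1a* upstream: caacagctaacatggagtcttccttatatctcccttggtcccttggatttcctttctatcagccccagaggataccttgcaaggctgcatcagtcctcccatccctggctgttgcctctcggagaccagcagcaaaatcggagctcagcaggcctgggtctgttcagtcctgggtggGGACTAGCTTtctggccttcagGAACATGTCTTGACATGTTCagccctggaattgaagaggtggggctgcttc
*Phlda3* upstream: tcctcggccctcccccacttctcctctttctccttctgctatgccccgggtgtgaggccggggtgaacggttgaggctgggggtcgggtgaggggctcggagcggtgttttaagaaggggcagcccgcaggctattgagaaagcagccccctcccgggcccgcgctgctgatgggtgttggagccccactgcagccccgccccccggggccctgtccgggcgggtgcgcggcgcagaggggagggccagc

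**Figure D1:**
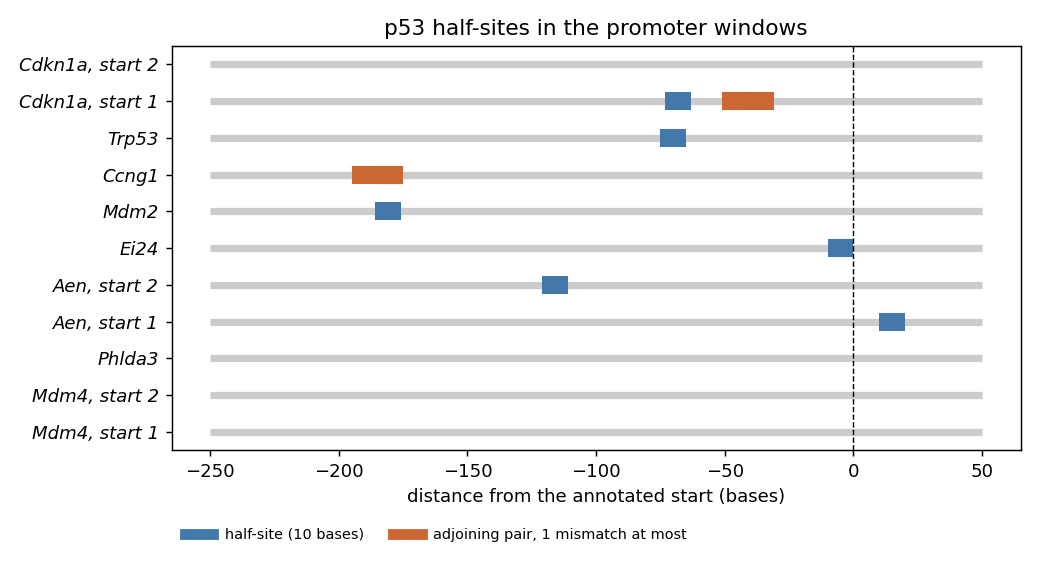
Positions of p53 half-sites (blue, 10 bases) and of adjoining pairs with at most 1 mismatch (orange, 20 bases) in the 11 RefSeq promoter windows of 8 genes (grey bars), against the distance in bases from each annotated start (dashed line at 0). Pairs lie in the windows of *Cdkn1a* (first start) and *Ccng1*, and neither window of *Mdm4*, the window of *Phlda3* nor the second window of *Cdkn1a* holds a half-site.

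Whether the p53 axis differed between *Myh9*-deficient and control LSKs was asked gene by gene. *Phlda3*, *Aen* and *Ccng1* rose in cKO LSKs and *Cdkn1a*, the gene of the cell cycle inhibitor p21, fell, while *Trp53*, *Mdm2*, *Mdm4*, *Trp53inp1* and *Ei24* were not called. Thus 3 of 9 genes tested were higher and 1 was lower at an adjusted p under 0.05 (limma), where 19.9% of all 11552 genes tested were called higher and 20.6% lower. *Zmat3*, below the filter of a mean of 1 FPKM, was not tested. The 3 cKO libraries lay above the 3 CTRL libraries for 3 of the 9 (*Phlda3*, *Aen* and *Ccng1*), beside 25.5% of all genes tested. They lay below for 3 (*Cdkn1a*, *Mdm2* and *Trp53inp1*), beside 28.5% of all genes tested. The median log2 fold change was 0.031 over the 9 genes and -0.0096 over all genes tested. With so few genes, counts of 3 and 1 are not a result about the genes as a group. When a change past 2-fold was asked for together with p under 0.05 before adjustment, as the study did, 0 of the 9 passed on the log2(FPKM + 1) scale of limma, beside 2.13% of genes. The only members with an unadjusted p under 0.05 were the 4 called above. With voom on the recovered reads, *Phlda3* exceeded 2-fold (log2 fold change 1.15, adjusted p = 2.2e-06). An exact permutation test of 3 against 3 libraries cannot give a two-sided p below 0.1, and none is printed for single genes.

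*Trp53* (ENSMUSG00000059552; GRCm38 chr11:69580359-69591873, plus strand) had the highest level of the 10 genes. Its level was 79.5, 83.7 and 80.6 FPKM in CTRL and 83.6, 83.7 and 81.9 FPKM in cKO LSKs. The libraries of the groups overlapped, with means of 81.3 ± 2.19 and 83.1 ± 1.04 FPKM (SD, n = 3 each). The log2 fold change of FPKM + 1 was 0.031 (standard error, SE, 0.0285, adjusted p = 0.423, limma), and its 95% interval ran from a ratio of 0.975 to 1.07. Each value rests on 5969 to 6395 reads. The processed pseudogene *Trp53-ps*, whose reads the counting may have shared with *Trp53*, was at a mean of 4.97 FPKM in CTRL and 4.56 FPKM in cKO LSKs. The other genes of the family, *Trp63* and *Trp73*, were listed at 0 in each of the 6 libraries.

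*Mdm2* (ENSMUSG00000020184; chr10:117688875-117710758, minus strand) encodes the ubiquitin ligase that degrades p53 and is itself a p53 target. It measured 8.86, 8.76 and 8.77 FPKM in CTRL and 8.20, 8.68 and 8.69 FPKM in cKO LSKs. Every cKO library was below every CTRL library, but 2 of them lay within 0.1 FPKM of the lowest CTRL library. The log2 fold change was -0.042 (SE 0.0386, 95% interval -0.13 to 0.050, adjusted p = 0.426, limma). *Mdm4* (ENSMUSG00000054387; chr1:132959484-133030561, minus strand), whose product binds and inhibits p53 without degrading it, was at 5.29, 5.45 and 5.15 FPKM in CTRL and 5.50, 5.25 and 5.42 FPKM in cKO LSKs. These values overlapped, with a log2 fold change of 0.021 (SE 0.0436, 95% interval -0.083 to 0.12, adjusted p = 0.734, limma). No difference in the mRNA of either inhibitor was detectable in this test. *Gm29257*, a processed pseudogene on the opposite strand within *Mdm4*, was at a mean of 0.463 FPKM in CTRL and 0.930 FPKM in cKO LSKs, and *Mdm4-ps* was listed at 0. How strand was handled in counting is not given in the sources used here.

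*Cdkn1a* (ENSMUSG00000023067; chr17:29090976-29100727, plus strand, 3 exons) encodes p21, which blocks cyclin-dependent kinases and is the classical mediator of p53-induced arrest. It was at 13.0, 11.9 and 14.5 FPKM in CTRL and at 8.84, 7.87 and 9.21 FPKM in cKO LSKs. The highest cKO library was below the lowest CTRL library, and the mean fell by 34.2%, from 13.1 ± 1.33 to 8.64 ± 0.690 FPKM (SD, n = 3 each). The log2 fold change was -0.55 (SE 0.0827, 95% interval -0.75 to -0.35, adjusted p = 0.00265, limma), and 3.12% of all genes tested had a value this low or lower. The values rest on 743 to 990 reads in CTRL and 510 to 609 reads in cKO libraries. *AC167363.2*, on the opposite strand over part of *Cdkn1a*, was at a mean of 0.539 and 0.446 FPKM.

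*Ccng1* (ENSMUSG00000020326; chr11:40748552-40755311, minus strand) encodes cyclin G1, which recruits a phosphatase to MDM2 and takes part in feedback on p53. It was at 17.6, 17.4 and 16.5 FPKM in CTRL and 20.0, 19.5 and 21.4 FPKM in cKO LSKs. All cKO libraries were above all CTRL libraries, and the mean was 18.2% higher (17.2 ± 0.564 against 20.3 ± 0.996 FPKM). The log2 fold change was 0.23 (SE 0.0453, 95% interval 0.12 to 0.34, adjusted p = 0.00798, limma). *Cdkn1a* and *Ccng1*, the members with a pair of half-sites in the promoter window, therefore moved in opposite directions.

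*Phlda3* (ENSMUSG00000041801; chr1:135766119-135769136, plus strand) encodes a small pleckstrin homology protein that competes with AKT for membrane lipids and so restrains AKT. It was at 3.35, 3.35 and 3.28 FPKM in CTRL and 7.64, 7.35 and 6.89 FPKM in cKO LSKs. The cKO libraries stood well apart from the CTRL libraries, and the ratio of the means was 2.19 (3.33 ± 0.0442 and 7.29 ± 0.375 FPKM, SD, n = 3 each). On the log2(FPKM + 1) scale, which understates the change of low genes, the difference was 0.94 (SE 0.0498, 95% interval 0.82 to 1.06, adjusted p = 3.8e-05, limma). Of all genes tested, 195 (1.69%) had a difference this high or higher. The reads behind the values rose from 92 to 104 in a CTRL library to 200 to 223 in a cKO library.

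*Aen* (ENSMUSG00000030609; chr7:78895854-78911209, plus strand) encodes an apoptosis-enhancing nuclease that p53 induces. Its level was 11.1, 11.3 and 11.0 FPKM in CTRL and 15.1, 15.2 and 15.2 FPKM in cKO LSKs. The replicates of each group were close together and the groups did not overlap, and the mean rose by 36.2%, from 11.1 ± 0.114 to 15.2 ± 0.0488 FPKM. The log2 fold change was 0.41 (SE 0.0307, 95% interval 0.34 to 0.49, adjusted p = 1.4e-04, limma), with 1151 to 1642 reads behind each value.

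*Zmat3* (ENSMUSG00000027663; chr3:32334792-32366014, minus strand) encodes a zinc finger protein that binds RNA. It had the lowest level of the 10 genes, with 0.330, 0.169 and 0.333 FPKM in CTRL and 0.462, 0.552 and 0.602 FPKM in cKO LSKs. All cKO libraries were higher, and the ratio of the means was 1.94. Without the filter on low values the log2 fold change of FPKM + 1 was 0.27 (SE 0.0727, adjusted p = 0.0578, limma). With voom (limma) on the recovered reads, 34 to 75 in CTRL and 99 to 128 in cKO libraries, it was 1.01 (SE 0.227, adjusted p = 0.00133). The voom fit kept genes with a mean of at least 10 reads, a filter chosen after the data were seen. The difference passed the threshold in the fit on reads and not in the fit on FPKM + 1. These fits differ both in scale and in the genes kept, so the call for *Zmat3* depended on the fit.

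*Trp53inp1* (ENSMUSG00000028211; chr4:11156431-11174379, plus strand), whose product takes part in stress-induced autophagy and apoptosis, was at 2.79, 3.04 and 2.86 FPKM in CTRL and 2.70, 2.74 and 2.52 FPKM in cKO LSKs. The cKO libraries were below the CTRL libraries by a small margin. The log2 fold change was -0.093 (SE 0.0576, 95% interval -0.23 to 0.044, adjusted p = 0.241, limma). *Ei24* (ENSMUSG00000062762; chr9:36779159-36797393, minus strand), an endoplasmic reticulum protein gene first found among etoposide-induced transcripts, was at 15.1, 12.7 and 13.6 FPKM in CTRL and 13.9, 15.2 and 15.3 FPKM in cKO LSKs. The groups overlapped, and the log2 fold change was 0.096 (SE 0.0682, 95% interval -0.067 to 0.26, adjusted p = 0.304, limma). *Gm26787*, antisense to *Ei24*, was at a mean of 0.0862 and 0.0601 FPKM.

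**Figure D2:**
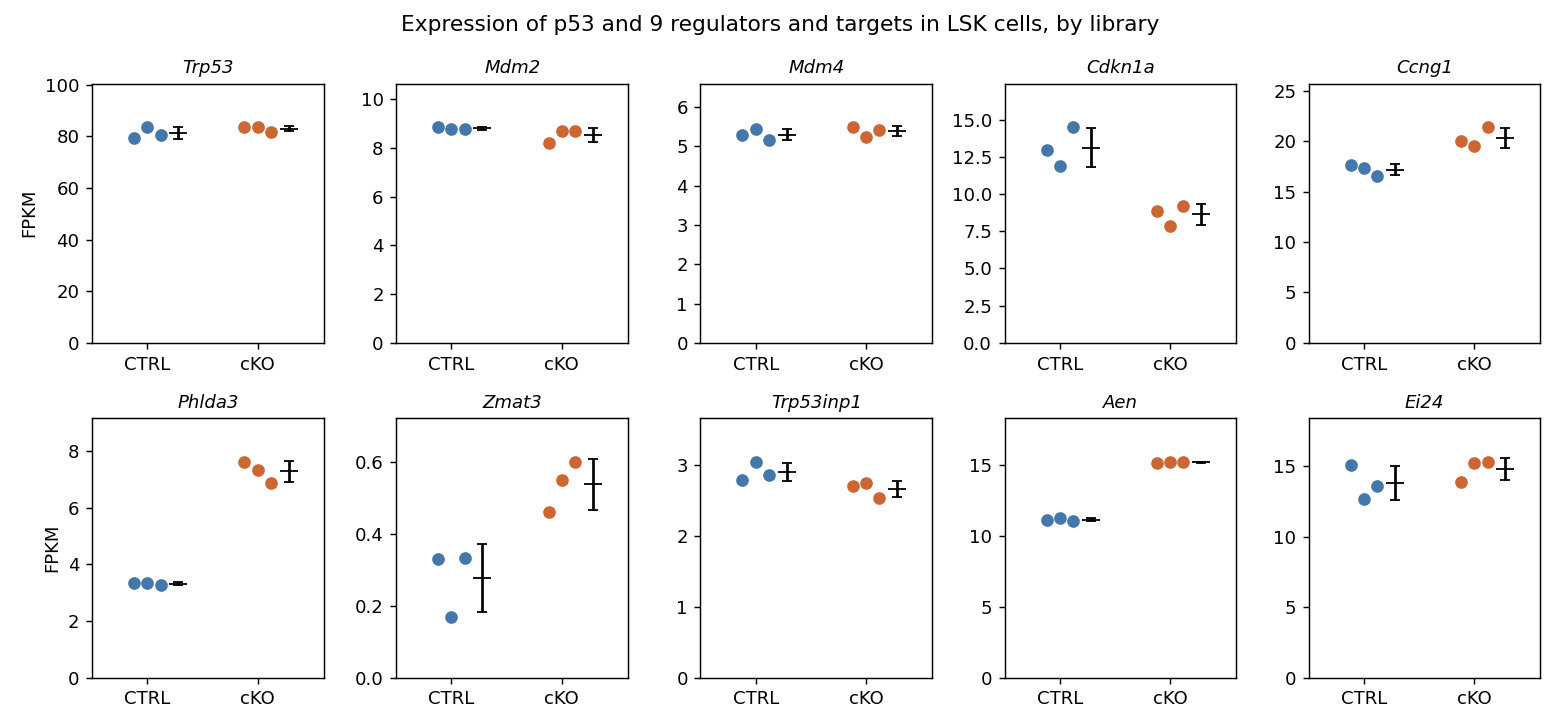
FPKM of each of the 10 genes (y axes, from 0) in the 3 CTRL libraries (blue points) and the 3 cKO libraries (orange points), with the mean and SD beside each group. *Phlda3*, *Aen*, *Ccng1* and *Zmat3* are higher in every cKO library and *Cdkn1a*, *Mdm2* and *Trp53inp1* are lower in every cKO library, the last 2 by small margins and not called, while *Trp53*, *Mdm4* and *Ei24* overlap.

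**Figure D3:**
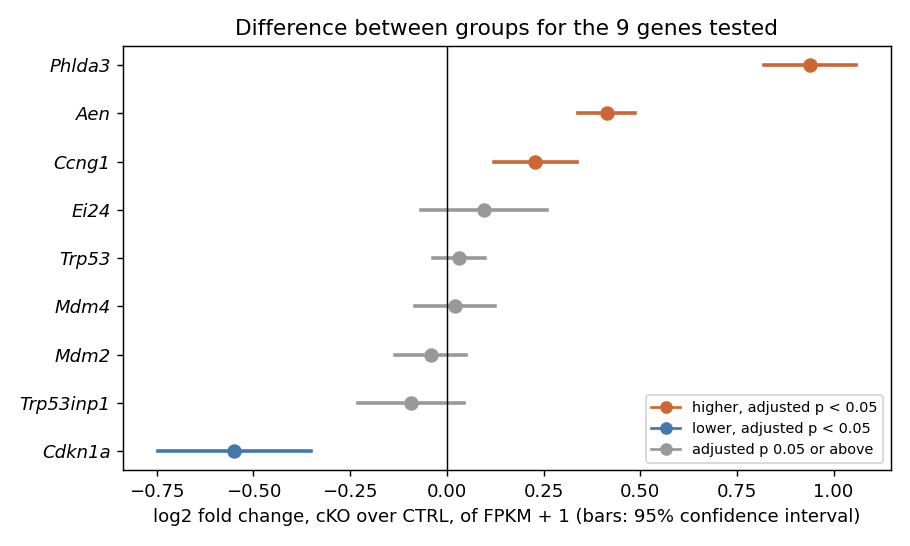
Log2 fold change of FPKM + 1, cKO over CTRL (x axis), for the 9 genes tested, with 95% confidence intervals from limma as bars. The intervals of *Phlda3*, *Aen* and *Ccng1* lie above 0, that of *Cdkn1a* lies below 0, and the other 5 cross 0.

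The order between genes depends on the gene length used for scaling. That length was 3512 bases for *Ccng1*, as was its longest principal transcript, but 4868 bases for *Ei24*, whose transcript has 2309. On the deposited scale, the order over all 6 libraries ran from *Trp53* through *Ccng1*, *Ei24*, *Aen*, *Cdkn1a*, *Mdm2*, *Mdm4*, *Phlda3* and *Trp53inp1* to *Zmat3*. Neighbours kept this order in every library of both groups except at 4 places. In CTRL LSKs the order of *Cdkn1a* (mean 13.1 FPKM) and *Aen* (11.1 FPKM) was the reverse of that in cKO LSKs (8.64 and 15.2 FPKM). In cKO LSKs *Ei24* overlapped with *Aen* (14.8 and 15.2 FPKM), and *Cdkn1a* with *Mdm2* (8.64 and 8.52 FPKM). *Phlda3* lay below *Mdm4* in CTRL LSKs (3.33 and 5.30 FPKM) and above it in cKO LSKs (7.29 and 5.39 FPKM).

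The genes with the pattern most like that of *Trp53* over the 6 libraries, among the 4894 genes that averaged 10 FPKM or more, were *Cul1* (Pearson r = 0.973), *Wdr45b* (0.969) and *Ppp1r12c* (0.962). None of these 3 was called between groups. Those most like *Cdkn1a* were *S100a10* (r = 0.995), *Lgals1* (0.989) and *Glrx* (0.988), each of which fell, with log2 fold changes of -0.26, -0.56 and -0.29 (adjusted p = 0.00250, 3.2e-04 and 0.00360, limma). These correlations describe 6 libraries in 2 groups and share the depth of each library. For *Cdkn1a* they follow the difference between the groups and, in part, the spread within them. *Cdkn1a*, *S100a10* and *Lgals1* were each highest in library 3 and lowest in library 2 of both groups.

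The genes upstream of p53 were followed next. Of 25 regulators listed (kinases that sense DNA damage such as *Atm* and *Chek2*, ubiquitin ligases and proteases, ribosomal proteins that bind MDM2, acetylases and binding partners), 24 were tested, 0 were higher and 2 were lower (limma), beside 19.9% and 20.6% of all genes tested, with a median log2 fold change of -0.034. At an unadjusted p under 0.05, 3 were higher and 5 lower, and the share of all genes at that threshold was not computed. Voom on the recovered reads called 3 higher and 4 lower, where over all 11552 genes it called 2725 higher and 2546 lower. The 2 that fell were *Cop1* (mean 3.27 to 2.84 FPKM, -0.15 on the log2 scale, adjusted p = 0.0433 in limma), a ubiquitin ligase for p53, and *Hipk2* (1.63 to 1.23 FPKM, -0.24, adjusted p = 0.0487), a kinase that phosphorylates p53. They were named after their values were seen. *Cdkn2a*, which encodes the MDM2 inhibitor ARF, was at 0 to 0.0889 FPKM in CTRL and 0 to 0.137 FPKM in cKO LSKs, below the filter.

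Of 52 further p53 targets listed, 40 were tested, and 10 rose, 9 fell and 21 were not called (limma), with a median log2 fold change of 0.021. These shares lie near those over all genes tested (19.9% higher and 20.6% lower), so the counts by role are given as a description. Their directions were mixed within most roles. Among 11 apoptosis genes, 8 were tested, 2 rose and 3 fell. *Bax*, the mitochondrial pore former, was at 50.0, 48.7 and 53.4 FPKM in CTRL and 62.4, 74.4 and 67.3 FPKM in cKO LSKs, with no overlap (0.42 on the log2 scale, SE 0.0671, adjusted p = 0.00354 in limma). *Pmaip1*, which encodes the BH3-only protein NOXA, was at 7.91, 8.15 and 8.11 FPKM in CTRL and 4.44, 4.48 and 4.08 FPKM in cKO LSKs (-0.76, SE 0.0469, adjusted p = 6.6e-05). *Bbc3*, which encodes the BH3-only protein PUMA, was at 9.87, 9.06 and 9.10 FPKM against 8.02, 7.85 and 6.88 FPKM (-0.27, SE 0.0643, adjusted p = 0.0160). *Bax* thus moved opposite to *Pmaip1* and *Bbc3*. *Perp*, a desmosomal protein gene linked to p53-dependent death, was the other gene that rose (mean 1.42 to 3.17 FPKM, 0.79, adjusted p = 9.8e-04), and *Apaf1*, the scaffold of the apoptosome, also fell (5.19 to 3.69 FPKM, -0.40, adjusted p = 0.00450). *Perp* and *Apaf1* lay outside the naming rule by their level and were named after their values were seen.

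Of 11 further targets with a role in cell cycle arrest, 9 were tested, 2 rose and 3 fell. *Btg2*, an antiproliferative gene, was at 39.3, 35.5 and 36.5 FPKM in CTRL and 13.1, 12.1 and 14.4 FPKM in cKO LSKs, with all cKO libraries below all CTRL libraries. Its log2 fold change of -1.43 (SE 0.0664, adjusted p = 2.4e-05, limma) was the largest in size among the further targets. *Gadd45a*, a stress-induced gene of growth arrest, was at 19.0, 17.5 and 17.3 FPKM in CTRL and 13.0, 12.4 and 13.7 FPKM in cKO LSKs (-0.43, adjusted p = 0.00103). *Gtse1*, which counteracts p53 in G2, rose from a mean of 12.4 ± 0.328 to 15.5 ± 0.459 FPKM (0.30, adjusted p = 0.00136), and *Cd82*, a tetraspanin gene, from 19.4 ± 0.514 to 25.9 ± 1.23 FPKM (0.40, adjusted p = 6.8e-04).

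Of 13 metabolic targets, 8 were tested, 2 rose and 2 fell. *Ddit4*, an inhibitor of mTORC1 that also answers hypoxia and glucocorticoids, was at 18.1, 15.6 and 17.0 FPKM in CTRL and 33.2, 36.0 and 31.8 FPKM in cKO LSKs, about as large a difference on the log2 scale as that of *Phlda3* (0.95, SE 0.0666, adjusted p = 1.1e-04, limma). *Prkab1*, an AMPK subunit gene, rose by 0.20 and *Gpx1*, a glutathione peroxidase gene, fell by 0.11 on the log2 scale (adjusted p = 0.0333 and 0.0480). Of 8 DNA repair targets, 7 were tested and 0 were called in either direction by limma, and voom called 1 higher and 0 lower. At an unadjusted p under 0.05, for which no share of all genes was computed, 1 was higher and 1 lower. Of 9 targets with other roles, 8 were tested, 4 rose and 1 fell. *Psrc1*, a microtubule-associated protein gene, rose from 10.9 ± 0.633 to 15.3 ± 0.150 FPKM (0.45, adjusted p = 5.2e-04), and *Rps27l*, a ribosomal protein paralog that modulates p53 stability, from 243 ± 5.24 to 284 ± 14.2 FPKM (0.23, adjusted p = 0.00529). *Dglucy*, a D-glutamate cyclase gene, fell from 7.74 ± 0.327 to 4.90 ± 0.316 FPKM (-0.57, adjusted p = 4.8e-04).

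Among the cell cycle genes that p53 represses through p21, all 23 listed were tested, and 6 rose and 7 fell (limma), beside 19.9% and 20.6% of all genes tested, with a median log2 fold change of 0.0044. Voom on the recovered reads called 10 higher and 6 lower. The genes that rose included mitotic genes, but other mitotic genes of the list did not rise. *Aurkb*, a mitotic kinase gene, fell (-0.10, adjusted p = 0.0478 in limma), and *Plk1* and *Aurka* were not called. They were named after their values were seen. *Ccnb1*, the cyclin of mitotic entry, was at 33.7, 34.6 and 34.3 FPKM in CTRL and 41.1, 46.0 and 41.8 FPKM in cKO LSKs (0.32, SE 0.0462, adjusted p = 0.00224). *Cdc20*, an activator of the anaphase-promoting complex, rose from 115 ± 2.16 to 136 ± 1.42 FPKM (0.24, adjusted p = 5.4e-04), *Cdc25c* by 0.43 and *Ccnb2* by 0.20 on the log2 scale. *Top2a*, a topoisomerase gene, fell from 38.0 ± 0.0587 to 29.3 ± 0.770 FPKM (-0.36, adjusted p = 2.1e-04), *Foxm1* fell by 0.31, *E2f1* by 0.24 and *Rbl1* by 0.18 on the log2 scale.

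**Figure D4:**
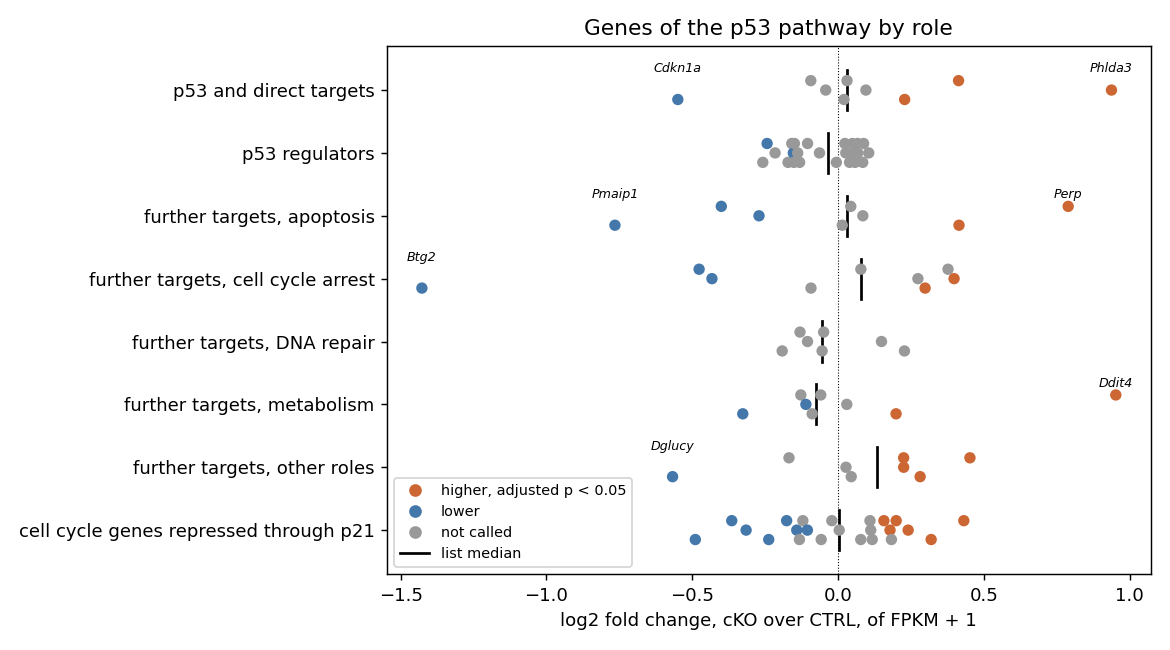
Log2 fold change of FPKM + 1, cKO over CTRL (x axis), for each gene tested in the lists of the p53 pathway (rows), coloured as higher (orange), lower (blue) or not called (grey) at an adjusted p under 0.05 in limma, with black bars at the list medians. Medians lie between -0.074 and 0.14, and genes called in both directions are found in each list except the regulators and the DNA repair targets.

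The windows with a pair of half-sites were then compared with the measured levels. A pair was found in windows of 29 genes, of which 6 were tested. *Ccng1*, *Gtse1*, *Rps27l* and *Mthfd1* were higher, *Cdkn1a* was lower and *Calhm2* was not called (log2 fold change -0.11, adjusted p = 0.405, limma). Over all genes tested 19.9% were higher and 20.6% lower, and nothing is read from a count over 6 genes. *Mthfd1*, a folate enzyme gene that is in none of the lists, was at a mean of 40.6 FPKM in CTRL and 49.0 FPKM in cKO LSKs (0.27, adjusted p = 9.6e-04), and like *Calhm2* it was named after its values were seen. Of 43 further targets with a window, 9 held a half-site and 2 (*Gtse1* and *Rps27l*) a pair. Their pairs, in capitals, are shown for comparison with those of *Cdkn1a* and *Ccng1*, at chr15:85859945-85859964 for *Gtse1* and chr9:66946296-66946315 for *Rps27l*, both on the plus strand.
*Gtse1* pair: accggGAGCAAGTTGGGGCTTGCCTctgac
*Rps27l* pair: atggcGGGCTTGTTGAGACTTGTCCgggcg

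Markers of other cell types moved between the groups beside these results. The summed FPKM of 6 erythroid markers was 50.2 to 54.3 in CTRL and 102 to 113 in cKO libraries, with 4 of 4 tested higher, while *Alas2* and *Slc4a1*, which mark maturing erythroid cells, were at or near 0 in every library. That of 4 megakaryocyte markers was 56.2 to 59.9 and 124 to 129, with 3 of 3 tested higher. The neutrophil and monocyte markers summed to 437 to 446 in CTRL and 294 to 327 in cKO libraries, with 3 of 4 tested lower. Most of the fall lay in *Lyz2* (mean 230 and 133 FPKM). *Csf1r* and *S100a9* were also lower, while *S100a8* (67.8 and 67.3 FPKM) was not called. T and NK cell markers summed to 351 to 361 and 285 to 290, with 1 higher and 1 lower of 2 tested. This sum was carried by *Nkg7* (mean 353 and 280 FPKM), while the other 4 T and NK cell markers were higher in every cKO library than in any CTRL library (*Trbc2* 1.22 and 6.13 FPKM), *Cd3e* being listed at 0 in each CTRL library. B and plasma cell markers summed to 63.3 to 69.1 and 94.6 to 101, with 2 higher and 1 lower of 4 tested and *Ms4a1* near 0. The rise lay mostly in *Jchain* (mean 30.4 and 64.0 FPKM), while *Cd79b* (31.1 and 29.2 FPKM) was not called. The part of these cell types in the changes of *Cdkn1a*, *Phlda3*, *Aen* and *Ccng1* was not tested.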

How the data were processed

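LSKs were sorted and sequenced as 3 CTRL and 3 cKO libraries (TruSeq kit). The authors deposited FPKM for each gene and library, with the gene length used for scaling. The submitters' processing notes name HISAT2 2.0.5 and mm10, and the counting program is not given in the sources used here. The sample descriptions state 2 doses of poly I:C and the study's methods 3. Multiplied by gene length, 100% of the values were whole multiples (tolerance 0.05) of a step particular to the library, which gave the reads behind each value. Read numbers speak to counting error only. Of 54532 gene identifiers, 54495 were in GENCODE M21 (GRCm38), and the coordinates of the genes described were the same in both.

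The test was run on log2(FPKM + 1) for the 11552 genes averaging 1 FPKM or more, by limma 3.58.1 in R 4.3.3 (lmFit, then eBayes with trend). The p-values are two-sided and were adjusted by the Benjamini-Hochberg method across these genes. The script was tested on simulated data. Promoter windows came from RefSeq (GRCm38.p6). Other tools were Python 3.11.15 with pandas 2.3.3, numpy 2.4.6 and matplotlib 3.10.9, and the R package data.table (version 1.17.8). The members and the lists were chosen with earlier results of these data known. Named genes were every member, *Myh9*, genes overlapping a member and its pseudogenes, up to 4 genes called in each direction per pathway list and averaging 5 FPKM or more, the p53 family, and the 3 genes most correlated with *Trp53* and with *Cdkn1a*. Alternatives were a pseudocount of 0.1, other filters, scalings and moderation, a replicate block, leaving out each library, removal of GC and length trends, the study's thresholds and voom on recovered reads.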

Additional observations from a re-analysis of the deposited data

How the results depend on the processing

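Over 19 alternatives each, *Cdkn1a* (log2 fold change -0.61 to -0.48), *Ccng1* (0.19 to 0.26), *Phlda3* (0.85 to 1.15) and *Aen* (0.39 to 0.49) kept their direction and an adjusted p under 0.05, the highest being 0.0315 for *Ccng1*. *Trp53* changed sign with quantile normalization (-0.0066, adjusted p = 0.875, limma) and *Mdm2* with the length trend removed (0.0086, adjusted p = 0.882), and neither was called under any alternative. At the study's thresholds 0 members were higher and 0 lower on the log2(FPKM + 1) scale. Voom on genes with a mean of at least 10 reads, chosen after seeing the data, called 4 members higher, *Zmat3* being added. With a replicate block 4107 genes were called instead of 4673, and the same counts of members, 3 and 1. By the labels, libraries of the same number have only that number in common. Correlations of their deviations from the group means were -0.0046, -0.011 and -0.026, which cannot show whether they were handled together. *Zmat3* and *Phlda3* have the fewest reads of the members.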
